A study of Mus musculus with 44 samples.

Results

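Immune checkpoint and adenosine genes were followed in fibroblasts sorted from mouse mammary glands and mammary tumors. The 8 genes were taken by name from the 55486 genes of the count table: Cd274, Pdcd1lg2, Cd276, Cd200, Cd47, Lgals9, Entpd1 and Nt5e. Each is reported as CPM, the reads counted for the gene per 1000000 reads counted in that sample. The rule uses gene names and no measured value, but the genes were chosen with earlier results of these data known. Of the 8 genes, 7 passed the filter on low counts and were tested.

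RNA was sequenced from fibroblasts of 13 female En1-Cre;mTmG mice, in which GFP marks cells of the Engrailed1 (En1) lineage. All mice had received mammary tissue of a donor without clearing of the fat pad, so that the host's own gland was still present. Control mice (n = 3, labelled wildtype) received control tissue and gave the normal fibroblasts (NFs). WB1P mice (n = 5) received tissue of WapCre;Brca1F/F;Trp53F/F donors, and WB1P-Myc mice (n = 5) received the same alleles with Col1a1 invCAG-Myc-IRES-Luc. Wap drives Cre in the donor's mammary epithelium. The glands were taken from mice with end-stage tumors and from age-matched controls, but 2 of the 5 WB1P-Myc mice are labelled 8x8. The paper calls tumors of 8x8 mm advanced, the stage before end-stage, and the labels do not explain the term. For this experiment it counts fewer WB1P-Myc mice than the labels name. Fibroblasts were sorted as EpCAM-/CD49f-/CD31-/CD45- cells into En1+, double-, CD26+ and double+ populations, 44 libraries in all. CD26- fibroblasts are the En1+ and double- libraries of a mouse summed, and CD26+ fibroblasts are the CD26+ and double+ libraries summed. Of the 25 sums, 6 hold a single library. Fibroblasts of WB1P and WB1P-Myc tumors together are called cancer-associated fibroblasts (CAFs).

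T cells and macrophages carry inhibitory receptors that read ligands on neighbouring cells. PD-L1 (Cd274) and PD-L2 (Pdcd1lg2) engage PD-1, B7-H3 (Cd276) is a related B7 family protein, galectin-9 (Lgals9) binds glycans on proteins such as TIM-3, CD200 engages CD200R on myeloid cells, and CD47 engages SIRPα on phagocytes as a "do not eat me" signal. A second route is enzymatic: CD39 (Entpd1) takes extracellular ATP and ADP to AMP, CD73 (Nt5e) takes AMP to adenosine, and adenosine dampens lymphocytes through A2 receptors. Stromal cells, including fibroblasts and pericytes, can carry both kinds of protein.

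The genes lie on 4 chromosomes of the GRCm38 build. Cd274 (chr19:29367455-29388095, + strand), Pdcd1lg2 (chr19:29410919-29471161, + strand) and Entpd1 (chr19:40612366-40741602, + strand) share chromosome 19, the first pair being close neighbours. Cd276 (chr9:58524298-58555437, - strand) and Nt5e (chr9:88327197-88372092, + strand) are on chromosome 9. Cd200 (chr16:45382135-45409053, - strand) and Cd47 (chr16:49800533-49915010, + strand) are on chromosome 16, and Lgals9 (chr11:78962974-78984946, - strand) is on chromosome 11. Exons of Cd274 share 511 bases with AC119228.1 and exons of Cd276 share 416 bases with Gm10657, both on the opposite strand. How strand was treated in counting is not given in the sources used here, so that reads in these stretches are uncertain.

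Promoter windows of 300 bases (250 before and 50 after a transcription start, RefSeq, GRCm38.p6) were found for all 8 genes. The 4 printed here belong to the ligand genes Lgals9 and Cd274 and to Cd200 and Entpd1, which had the largest changes between NFs and CAFs. Capitals mark matches on either strand to TTCNNNGAA (the GAS element), a pair of GAAA runs 2 bases apart (an IRF element), ACGTG (the core of the hypoxia response element), TGACGTCA (the cAMP response element) or GGGCGG (the GC box).
Lgals9, chr11:78984875-78985174, - strand: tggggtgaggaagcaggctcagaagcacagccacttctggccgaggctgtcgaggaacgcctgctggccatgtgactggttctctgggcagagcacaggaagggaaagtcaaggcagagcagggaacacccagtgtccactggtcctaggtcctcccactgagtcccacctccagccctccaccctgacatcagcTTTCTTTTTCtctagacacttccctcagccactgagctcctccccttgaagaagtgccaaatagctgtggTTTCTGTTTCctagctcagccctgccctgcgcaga
Cd274, chr19:29367188-29367487, + strand: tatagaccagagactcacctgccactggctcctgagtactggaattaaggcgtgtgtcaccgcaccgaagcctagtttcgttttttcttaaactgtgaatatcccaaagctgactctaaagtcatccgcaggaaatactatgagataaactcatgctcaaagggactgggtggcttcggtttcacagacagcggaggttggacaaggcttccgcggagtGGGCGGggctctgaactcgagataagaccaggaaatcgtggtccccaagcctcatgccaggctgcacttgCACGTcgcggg
Cd200, chr16:45409004-45409303, - strand: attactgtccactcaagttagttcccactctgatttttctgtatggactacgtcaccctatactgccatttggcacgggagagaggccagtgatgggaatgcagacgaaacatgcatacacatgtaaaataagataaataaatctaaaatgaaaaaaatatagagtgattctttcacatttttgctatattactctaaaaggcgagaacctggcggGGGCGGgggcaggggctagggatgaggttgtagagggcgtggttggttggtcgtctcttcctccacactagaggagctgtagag
Entpd1, chr19:40612116-40612415, + strand: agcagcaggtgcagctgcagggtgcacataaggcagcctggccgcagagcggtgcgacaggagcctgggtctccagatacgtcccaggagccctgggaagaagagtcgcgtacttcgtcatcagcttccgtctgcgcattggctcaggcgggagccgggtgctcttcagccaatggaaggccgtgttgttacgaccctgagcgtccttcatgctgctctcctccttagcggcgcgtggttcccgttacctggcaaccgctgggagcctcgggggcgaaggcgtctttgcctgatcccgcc
Lgals9 held 2 IRF elements, TTTCTTTTTC and TTTCTGTTTC, a motif found in 3.44% of all 32851 windows of this length and in none of the other windows of the 8 genes. No window of the 8 genes held the GAS element (8.30% of all windows) or the cAMP response element (1.79%). The hypoxia core stood in the windows of Cd274 and Cd47 (19.6% of all windows). GC boxes stood in those of Cd274, Cd276, Cd200, Cd47 and Nt5e (35.7% of all windows), and the Entpd1 window above held none of the 5 motifs, nor did a second Entpd1 start listed downstream. A match is a run of letters, and binding was not measured.

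The libraries held 5790599 to 15240328 counts, with a median of 12818093. Dpp4, which encodes CD26, was at 0.619 to 17.6 CPM in CD26- and at 223 to 846 CPM in CD26+ sums, so the sort matched the labels in every mouse. Over all sums the 9 fibroblast markers ran from 34130 CPM (control mouse 2, CD26+) to 84670 CPM (WB1P-Myc mouse 12, CD26+). Most of this came from the collagen genes Col1a1, Col1a2 and Col3a1. Of these markers 1 rose and 3 fell in CD26- CAFs against CD26- NFs. Pdgfra was among the latter, with a mean of 1558 CPM in controls, 414 CPM in WB1P and 602 CPM in WB1P-Myc mice (log2 change -1.57 ± 0.35, edgeR, adjusted p = 0.00118), as were Dcn (4921, 982 and 1770 CPM) and Lum (2488, 674 and 895 CPM). Ptprc, which encodes the CD45 used to exclude immune cells, reached at most 10.0 CPM. The 8 pericyte markers summed to 1863 to 10790 CPM in CD26- CAFs against 214 to 419 CPM in CD26- NFs and 146 to 327 CPM in CD26+ sums. Control mouse 2 stood apart from the other controls, with 3.69 to 5.33 CPM over 5 proliferation genes against 40.2 to 99.4 CPM. The 7 macrophage markers moved with the CAF comparisons: 5 were higher in CD26- CAFs (median log2 change of the list 2.35), and 2 were higher and 1 lower in CD26+ CAFs (2.00). They summed to 8.99 to 16.9 CPM in CD26- NFs against 12.2 to 100.7 CPM in CD26- CAFs, and to 6.95 to 13.4 CPM in CD26+ NFs against 10.5 to 28.0 CPM in CD26+ CAFs. Their part in the results below was not tested. Results that rest on control mouse 2 or on the mice richest in pericyte markers are given with and without them.

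Per kilobase of exon, CD26- NFs held most Cd47 (49.1 ± 3.88 CPM per kb, SD, n = 3), followed by Cd276 (28.0 ± 13.4), Lgals9 (27.3 ± 12.3) and Entpd1 (19.5 ± 9.39), with overlapping spreads of the last 3. Nt5e (4.92 ± 0.435 CPM per kb), Cd274 (3.18 ± 2.34) and Cd200 (2.69 ± 1.52) lay far lower. In CD26- CAFs of WB1P tumors the order was another one. Lgals9 (48.6 ± 9.83 CPM per kb, n = 5) and Cd276 (46.0 ± 10.5) were at the top within their spread, then came Cd47 (29.5 ± 2.99) and Cd200 (21.6 ± 10.5), and Entpd1 was at 1.12 ± 0.529 CPM per kb. Pdcd1lg2 was at 0.107 CPM per kb or less as the mean of any group.

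**Figure D1:**
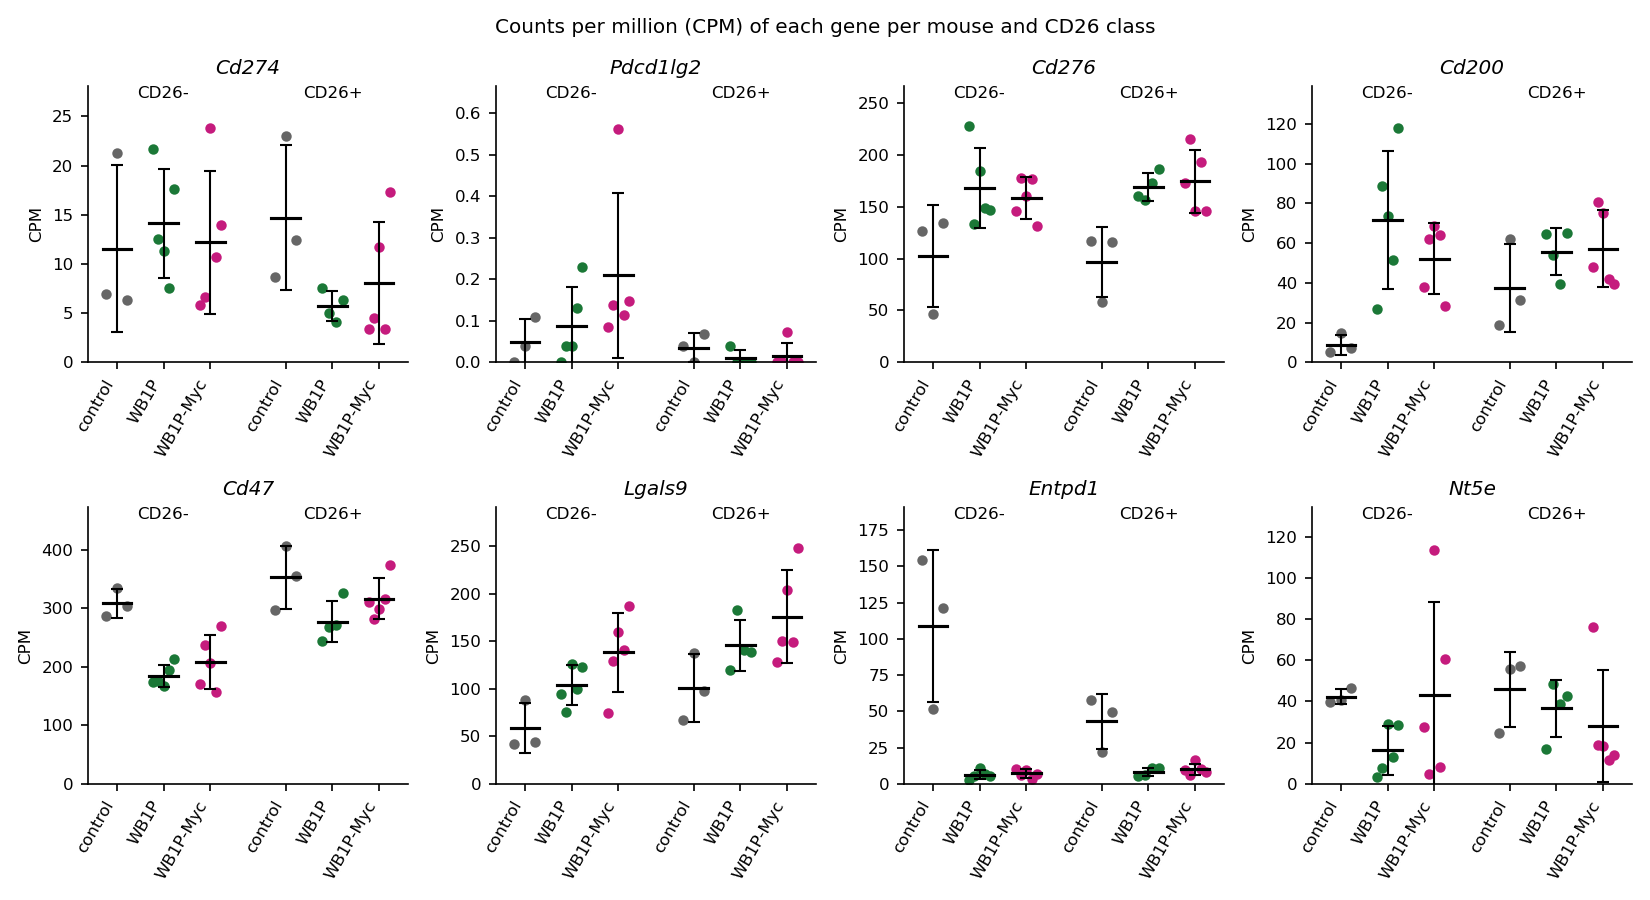
Level of each of the 8 genes in CPM (vertical axes, linear from 0, scaled per gene) for each mouse, by CD26 class and donor tissue (control n = 3; WB1P n = 5 CD26- and 4 CD26+; WB1P-Myc n = 5 each). Points are mice, bars the mean and SD, and Entpd1 shows the widest gap between control and tumor groups (in CD26- fibroblasts, controls span 51.5 to 154 CPM and tumor mice 2.79 to 10.8 CPM).

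The first comparison asked whether CD26- fibroblasts of tumors carried other levels of these genes than those of control glands. Cd200, Lgals9 and Cd276 rose in CD26- CAFs, Entpd1 and Cd47 fell, and Cd274 and Nt5e did not pass the test. Of the 7 genes tested, 5 were called at an adjusted p under 0.05 (edgeR quasi-likelihood test, adjusted by Benjamini-Hochberg over 16601 genes), beside 41.3% of all genes tested, of which 20.4% were higher and 21.0% lower. The paper also asked for a log2 change above 2 or below -2, which only Cd200 (2.85) and Entpd1 (-4.00) passed here. The median log2 change of the 7 genes was 0.24, against 0.01 for all genes. As these are bulk samples, fewer cells of a type and less RNA per cell cannot be told apart.

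In CD26+ fibroblasts, Lgals9 and Cd276 rose and Entpd1 fell in CAFs, with 3 of the 7 genes called beside 41.2% of all genes (20.1% higher, 21.1% lower). Of the genes called only Entpd1 (-2.12) passed the paper's added limit on the log2 change. The median log2 change of the 7 genes was -0.11, against -0.0025 for all genes. Both comparisons use the fibroblasts of the same control mice. The members are taken in turn below.

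Pdcd1lg2, the gene of the second PD-1 ligand, was at or near the counting floor. It had 0 to 7 counts in each of the 25 sums, at most 0.562 CPM, and more than 3 counts only in CD26- CAFs. It did not pass the low-count filter and was not tested.

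Cd274, the gene of PD-L1, was low and variable. CD26- NFs had 6.89, 21.3 and 6.36 CPM in control mice 1, 2 and 3, and CD26- CAFs had 5.797 to 23.9 CPM with a median of 11.9 (n = 10). These ranges overlapped, and the log2 fold change was 0.24 ± 0.50 (SE, adjusted p = 0.725), and 1.04 ± 0.57 without control mouse 2 (adjusted p = 0.177). CD26+ NFs had 8.68, 23.0 and 12.5 CPM, and CD26+ CAFs 3.39 to 17.3 CPM with a median of 5.01 (n = 9). The log2 fold change of -0.95 ± 0.48 missed the threshold in edgeR (adjusted p = 0.115). Without WB1P-Myc mouse 13, the highest CD26+ CAF value, it was -1.19 (adjusted p = 0.0421), and without control mouse 2, the highest of the NFs, it was -0.49 (adjusted p = 0.496).

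Cd276, the gene of B7-H3, was higher in CAFs of both CD26 classes. CD26- NFs had 127, 46.3 and 134 CPM, and CD26- CAFs 132 to 228 CPM with a median of 155, so that control mice 1 and 2 lay below all CAFs and mouse 3 at their lower end. The log2 fold change was 0.73 ± 0.26 (adjusted p = 0.0265). Without control mouse 2 it was 0.39 ± 0.19 and no longer called (adjusted p = 0.113), and with CAFs of WB1P-Myc mice alone it was 0.63 (adjusted p = 0.116). CD26+ NFs had 117, 57.9 and 116 CPM, below each of the 9 CD26+ CAF values of 146 to 215 CPM. There the log2 fold change was 0.95 ± 0.26 (adjusted p = 0.00648), and 0.69 without control mouse 2 (adjusted p = 0.0109).

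Lgals9, the gene of galectin-9, rose in CAFs of both classes. CD26- NFs had 42.4, 88.7 and 43.6 CPM, and CD26- CAFs 74.9 to 187 CPM with a median of 125. Control mouse 2 alone reached into the range of the CAFs. This was a log2 change of 1.10 ± 0.27 and a fold of 2.15 (adjusted p = 0.00262). CD26+ NFs had 67.2, 138 and 97.4 CPM, and CD26+ CAFs 120 to 248 CPM with a median of 150. This change was 0.81 ± 0.27 (adjusted p = 0.0201), and it was lost without control mouse 1 (0.60, adjusted p = 0.127), without control mouse 3 (0.77, adjusted p = 0.0793) and with CAFs of WB1P mice alone (0.72, adjusted p = 0.0588).

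Cd200 had the largest rise. CD26- NFs had 5.17, 14.7 and 6.95 CPM in control mice 1, 2 and 3. CD26- CAFs had 27.0 to 118 CPM with a median of 63.0, and each of the 10 tumor mice lay above each control mouse. The log2 fold change was 2.85 ± 0.47, a fold of 7.20 (adjusted p = 6.08e-05). CD26+ NFs were at 18.9, 61.9 and 31.6 CPM and CD26+ CAFs at 39.5 to 80.7 CPM (median 54.2), so that control mouse 2 lay among the CAFs and the other controls below them. There the change was 0.75 ± 0.41 (adjusted p = 0.146), and 1.30 ± 0.45 without control mouse 2 (adjusted p = 0.0329).

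Cd47, the most abundant of the 8 genes per kilobase in NFs, fell in CD26- CAFs. CD26- NFs had 286, 335 and 304 CPM, above every one of the 10 CD26- CAF values of 157 to 269 CPM (median 185). The difference was -0.59 ± 0.14 on the log2 scale (adjusted p = 0.00147). CD26+ NFs had 297, 405 and 356 CPM and CD26+ CAFs 245 to 374 CPM with a median of 299. These ranges overlapped, and the log2 change was -0.11 ± 0.14 (adjusted p = 0.549).

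Entpd1, the gene of the ectonucleotidase CD39, had the largest change of the 8 genes. CD26- NFs had 154, 51.5 and 121 CPM, and CD26- CAFs 2.79 to 10.8 CPM with a median of 6.27. The log2 fold change was -4.00 ± 0.34, a 15.96-fold lower level (adjusted p = 1.66e-08). CD26+ NFs had 57.8, 21.8 and 49.4 CPM, and CD26+ CAFs 5.24 to 16.4 CPM with a median of 9.46. This change was -2.12 ± 0.35 (adjusted p = 0.000104). In neither class did a tumor mouse reach the lowest control mouse. The level was 6.22 ± 2.95 CPM in WB1P and 7.12 ± 2.89 CPM in WB1P-Myc CD26- CAFs (SD, n = 5 each).

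Endothelial cells also express Entpd1. Of the 8 endothelial markers, 6 fell and 1 rose in CD26- CAFs (median log2 change -1.62), and 6 fell in CD26+ CAFs (median -2.53). Their sum was 50.2 to 81.8 CPM in CD26- NFs against 20.7 to 94.6 CPM in CD26- CAFs. In CD26+ fibroblasts it was 189 to 549 CPM in NFs against 69.2 to 174 CPM in CAFs, most of it from Tek. Pecam1, which encodes the CD31 used to exclude endothelial cells, was at 8.06 to 15.4 CPM in NFs and 1.44 to 11.7 CPM in CAFs, and Cldn5 was at 1.58 CPM or less as the mean of any group. B cells and dendritic cells can carry CD39 too. Of the 4 B cell markers 3 were tested, and 2 fell in CAFs of each class. They summed to 31.1, 6.16 and 35.0 CPM in CD26- NFs of control mice 1, 2 and 3, mostly from Cd79b in mice 1 and 3, against 0.538 to 7.73 CPM in CD26- CAFs. In CD26+ fibroblasts they summed to 6.83, 2.54 and 5.39 CPM in the same controls against 0.507 to 2.68 CPM in CAFs. Of the 5 dendritic cell markers 4 were tested, and 1 rose and 1 fell in CAFs of each class. The median log2 change of the 4 was positive, at 2.61 in CD26- and 1.39 in CD26+ CAFs, unlike the direction of their sums. Their sums were 24.7 to 61.7 CPM in CD26- NFs and 16.6 to 41.0 CPM in CD26- CAFs, and 20.2 to 54.8 CPM in CD26+ NFs against 8.73 to 22.9 CPM in CD26+ CAFs. Macrophage markers, given above, had a median log2 change of 2.35 in CD26- CAFs (5 higher). In CD26+ CAFs their median was 2.00 (2 higher and 1 lower). The part of RNA from any of these cell types in the Entpd1 result was not tested.

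Nt5e, the gene of CD73, varied widely among tumor mice. CD26- NFs were close together at 39.7, 40.7 and 46.6 CPM. CD26- CAFs ran from 3.17 to 114 CPM with a median of 20.3, and only WB1P-Myc mice 11 and 13 lay above the controls. The log2 fold change of -0.65 ± 0.67 (adjusted p = 0.450) was about as large as its error. It was -1.25 ± 0.50 with CAFs of WB1P mice alone (adjusted p = 0.0683), -0.03 ± 0.82 with those of WB1P-Myc mice alone (adjusted p = 0.979) and -1.0025 without WB1P-Myc mouse 11 (adjusted p = 0.216). CD26+ NFs had 24.8, 55.5 and 57.3 CPM and CD26+ CAFs 11.7 to 76.4 CPM with a median of 18.8. There the change was -0.37 ± 0.69 (adjusted p = 0.699), and -0.82 without WB1P-Myc mouse 9 (adjusted p = 0.305).

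**Figure D2:**
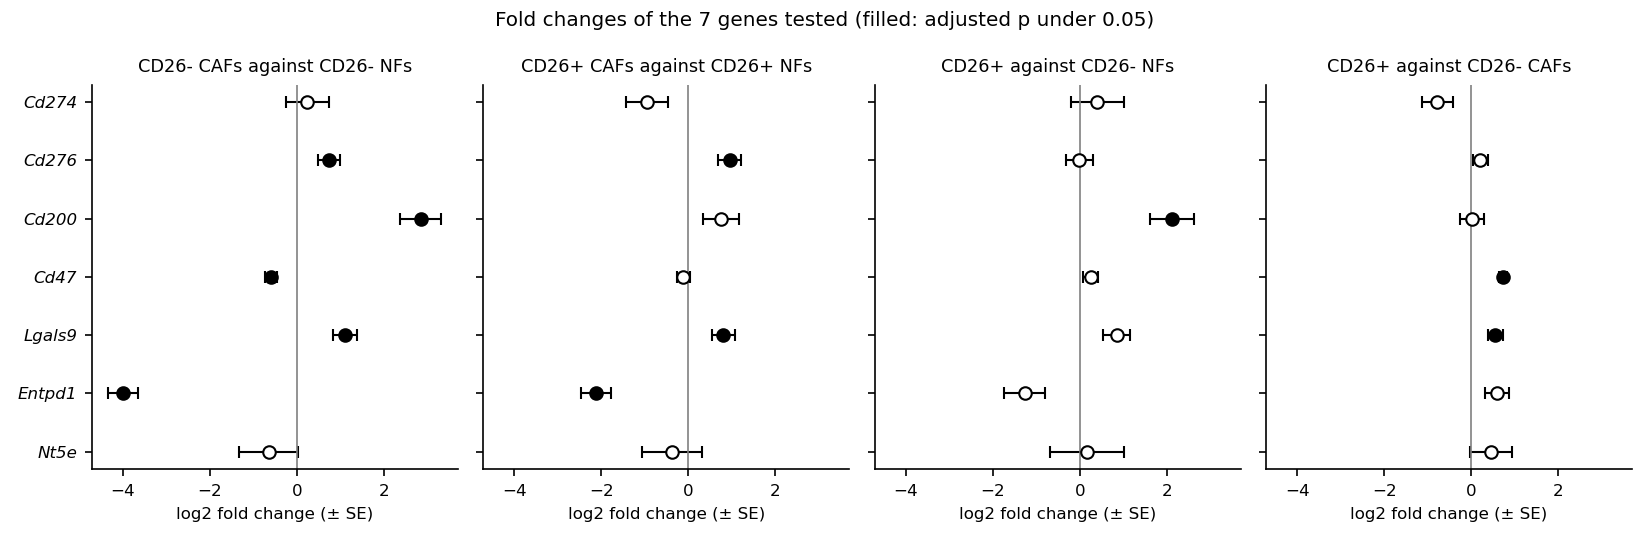
Log2 fold changes (horizontal axes) of the 7 genes tested in the 4 comparisons named above the panels, from edgeR on counts summed per mouse and CD26 class. Bars are standard errors and filled points have an adjusted p under 0.05; Entpd1 reaches -4.00 and Cd200 2.85 in CD26- CAFs against CD26- NFs.

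Pericyte markers moved with the CD26- comparison, as given above, and their part in it was not tested. Without the 3 tumor mice that held most of them (WB1P mouse 4 and WB1P-Myc mice 9 and 11) the number of genes called stayed at 5 in CD26- and at 3 in CD26+ fibroblasts. In CD26- fibroblasts the log2 changes without these mice were 2.98 for Cd200, 1.22 for Lgals9, 0.73 for Cd276, -0.50 for Cd47 and -4.06 for Entpd1. The tumor mice left still held 1863 to 4373 CPM of pericyte markers in their CD26- sums, against 214 to 419 CPM in CD26- NFs. This fit therefore does not remove the excess of these markers. The CD26- sums left out also each hold a single library. Without the 2 mice labelled 8x8 the numbers called were again 5 and 3.

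The next comparison set CD26+ against CD26- fibroblasts of the same kind of gland. In NFs, Cd200 was 4.36-fold higher in CD26+ fibroblasts, with a log2 change of 2.13 ± 0.50 (edgeR, adjusted p = 0.0151), and it was higher in 3 of 3 mice. It was the 1 gene called of the 7, beside 4.17% of all genes tested (2.67% higher and 1.49% lower). The call was lost without control mouse 2 (2.13, adjusted p = 0.0565) or mouse 3 (2.07, adjusted p = 0.152), and with only the NF groups in the fit (2.12 ± 0.55, adjusted p = 0.135). With the mouse as a block, which compares both classes within each animal, 3 genes were called beside 11.5% of all genes: Cd200 (2.11 ± 0.19, adjusted p = 1.75e-05), Lgals9 (0.89 ± 0.17, adjusted p = 0.00510) and Entpd1 (-1.25 ± 0.30, adjusted p = 0.0156). Lgals9 was higher and Entpd1 lower in CD26+ NFs of all 3 control mice. The corresponding values without the block were 0.85 ± 0.31 for Lgals9 (adjusted p = 0.164) and -1.27 ± 0.47 for Entpd1 (adjusted p = 0.168). The other genes tested differed by 0.26 ± 0.17 (Cd47, adjusted p = 0.613), 0.41 ± 0.61 (Cd274, adjusted p = 0.902), 0.17 ± 0.86 (Nt5e, adjusted p = 0.982) and -0.0083 ± 0.30 (Cd276, adjusted p = 1.00).

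In CAFs, Cd47 and Lgals9 were higher in CD26+ than in CD26- fibroblasts of each of the 9 tumor mice with both classes. All 8 pericyte markers were lower in CD26+ than in CD26- CAFs (median log2 change -5.81). The part of pericyte markers in any difference between the classes of CAFs, here or below, was not tested. Cd47 differed by 0.74 ± 0.10 on the log2 scale (adjusted p = 3.08e-06) and Lgals9 by 0.55 ± 0.18 (adjusted p = 0.0156). These were the 2 genes called of 7, beside 39.0% of all genes (19.1% higher and 19.9% lower). Within single tumor models the Lgals9 call was lost, at 0.59 for WB1P (adjusted p = 0.0852) and 0.50 for WB1P-Myc (adjusted p = 0.241), as it was without the 3 mice richest in pericyte markers (0.44, adjusted p = 0.107). Cd200 differed by 0.02 ± 0.27 between the classes (adjusted p = 0.954). It was lower in CD26+ CAFs of 4 of 4 WB1P mice and higher in 4 of 5 WB1P-Myc mice, a difference between the models that was not tested. Nt5e differed by 0.46 ± 0.49 (adjusted p = 0.488), and by 1.25 ± 0.47 with WB1P mice alone (adjusted p = 0.0704), in which CD26+ was higher in 4 of 4 mice.

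With the mouse as a block, 5 genes were called in CAFs, beside 49.4% of all genes. Cd274 was lower in CD26+ CAFs of 8 of 9 mice (-0.75 ± 0.17, adjusted p = 0.00286), the exception being WB1P-Myc mouse 13, whose CD26+ fibroblasts had 17.3 CPM and whose CD26- fibroblasts had 13.9 CPM. Cd276 (0.28 ± 0.09, adjusted p = 0.0156) and Entpd1 (0.54 ± 0.19, adjusted p = 0.0336) were each higher in CD26+ CAFs of 7 of 9 mice. Without the block Cd274 differed by -0.78 ± 0.35 (adjusted p = 0.0845), Cd276 by 0.21 ± 0.17 (adjusted p = 0.338) and Entpd1 by 0.60 ± 0.27 (adjusted p = 0.0846). Entpd1 passed the threshold also without control mouse 2 (0.60, adjusted p = 0.0477) and without WB1P mouse 6 (0.80, adjusted p = 0.0284), and Cd274 without WB1P-Myc mouse 13 (-0.99, adjusted p = 0.0312).

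**Figure D3:**
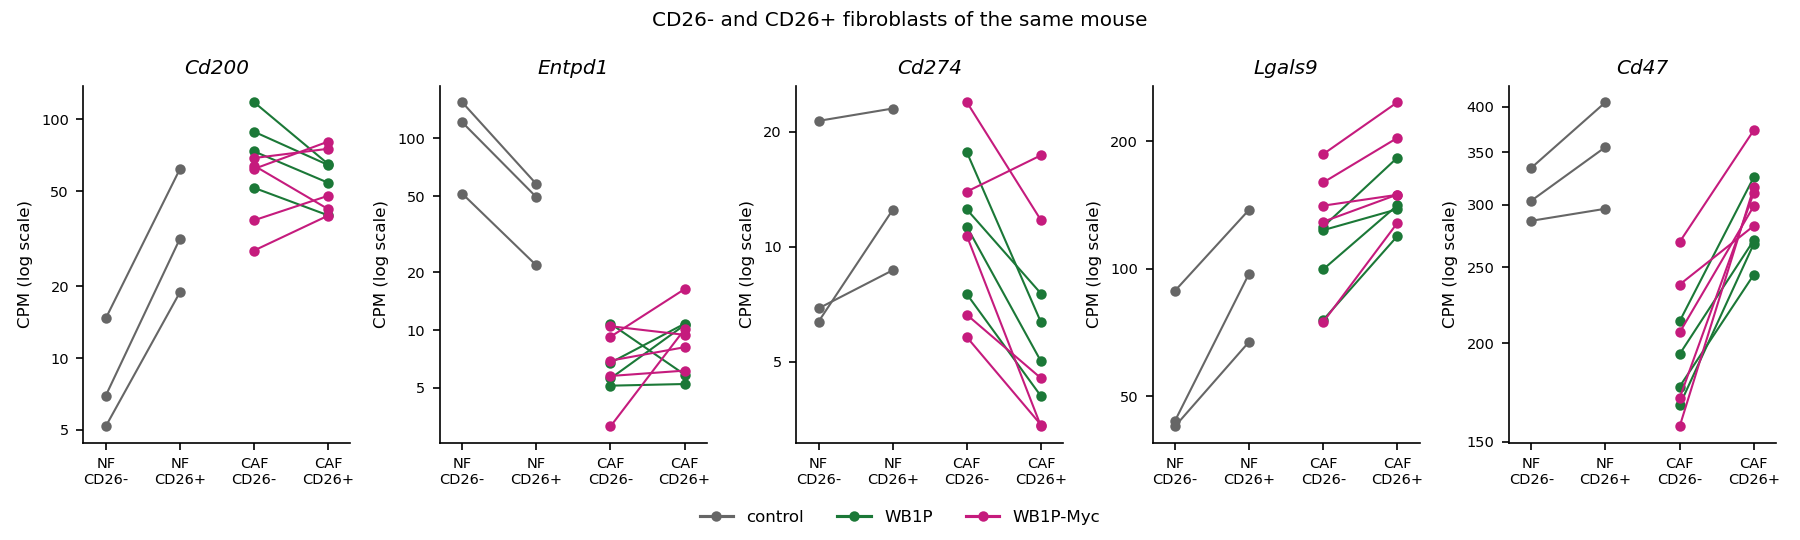
CPM (vertical axes, log scale) of 5 genes in CD26- and CD26+ fibroblasts; each line joins the classes of 1 mouse (3 control, 4 WB1P and 5 WB1P-Myc mice with both). Cd200 rises and Entpd1 falls along the line in all 3 control mice, whereas Cd274 falls in 8 of 9 tumor mice and Cd47 and Lgals9 rise in all 9.

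Whether the change from NF to CAF differed between the CD26 classes was tested as an interaction, in which a negative value means a smaller rise or larger fall in CD26+ fibroblasts. None of the 7 genes passed in the fit without the block, beside 2.11% of all genes, although 3 had an unadjusted p under 0.05 and DESeq2 called 2. Cd200 was closest (-2.10 ± 0.56, adjusted p = 0.0518), then Entpd1 (1.87 ± 0.55, adjusted p = 0.0811). Cd47 was at 0.48 ± 0.20 (adjusted p = 0.270) and Cd274 at -1.19 ± 0.70 (adjusted p = 0.522). Lgals9 (-0.30 ± 0.36, adjusted p = 0.813), Cd276 (0.22 ± 0.35, adjusted p = 0.871) and Nt5e (0.29 ± 0.99, adjusted p = 0.950) had smaller values relative to their errors. With the mouse as a block, 3 were called beside 6.08% of all genes: Cd200 (-2.17 ± 0.22, adjusted p = 0.000138), Entpd1 (1.79 ± 0.36, adjusted p = 0.0115) and Cd274 (-1.28 ± 0.33, adjusted p = 0.0386). Thus in the blocked fit the Cd200 rise was larger in CD26- fibroblasts, and so was the Entpd1 fall. Without the block, Cd200 passed when WB1P mouse 4 (-2.21, adjusted p = 0.0235) or WB1P-Myc mouse 13 (-2.12, adjusted p = 0.0437) was left out, and Entpd1 when WB1P mouse 6 was left out (2.08, adjusted p = 0.0459).

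Myc in the donor tissue was compared by setting WB1P-Myc against WB1P CAFs. None of the 7 genes was called by edgeR or DESeq2 in either class, and none had an unadjusted p under 0.05. Over all genes edgeR called 0.512% in CD26- CAFs and 0.0% in CD26+ CAFs, where 646 genes had an unadjusted p under 0.05 and DESeq2 called 9. Nt5e differed most in CD26- CAFs, by 1.21 ± 0.68 (adjusted p = 0.418), with 3.17, 7.77, 29.0, 12.9 and 28.3 CPM in WB1P mice 4 to 8 and 27.7, 4.64, 114, 8.36 and 60.5 CPM in WB1P-Myc mice 9 to 13. The sums of WB1P-Myc mice 9 and 11 hold only a double- library and that of WB1P mouse 4 only an En1+ library. Without WB1P-Myc mouse 11 the Nt5e difference was 0.49 (adjusted p = 0.797). Cd200 was at -0.60 ± 0.37 in the same comparison (adjusted p = 0.460), Lgals9 at 0.29 ± 0.24, Cd276 at -0.22 ± 0.23, Cd274 at -0.37 ± 0.47, Cd47 at 0.03 ± 0.13 and Entpd1 at -0.0039 ± 0.38. In CD26+ CAFs the 7 genes lay between -0.39 (Nt5e) and 0.35 (Cd274), each with an adjusted p of 1.00.

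The En1 lineage was compared within each CD26 class on single libraries, over 15584 genes. None of the 7 genes was called in any of these 4 comparisons by edgeR or DESeq2. Over all genes edgeR called 0.0% for En1+ against double- CAFs (641 genes at an unadjusted p under 0.05, 8 called by DESeq2), 0.0193% for double+ against CD26+ CAFs, and 0.00642% for En1+ against double- NFs and again 0.00642% for double+ against CD26+ NFs. Nt5e was the 1 gene of the 7 with an unadjusted p under 0.05, in En1+ against double- CAFs. The other 6 genes lay between -0.03 (Entpd1) and 0.19 (Lgals9) in that comparison and between -0.21 (Cd274) and 0.33 (Entpd1) for double+ against CD26+ CAFs, on the log2 scale. In NFs they lay between -0.41 (Cd200) and 0.25 (Cd276) for En1+ against double- and between -0.14 (Cd200) and 0.14 (Cd276) for double+ against CD26+ libraries. Each of these had an adjusted p of 1.00.

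Nt5e was lower in the En1 lineage in nearly every mouse. In NFs it was at 33.3, 32.4 and 36.6 CPM in En1+ and 47.3, 47.6 and 55.7 CPM in double- libraries of control mice 1, 2 and 3. It was lower in En1+ libraries of 4 of 4 WB1P mice and of 2 of 3 WB1P-Myc mice with both. WB1P-Myc mouse 13 had 4.46 CPM in its En1+ and 121 CPM in its double- library. Among CD26+ fibroblasts, double+ libraries were lower than CD26+ libraries in 3 of 3 mice of each of the 3 groups. The log2 change of En1+ against double- CAFs was -1.90 ± 0.53 (unadjusted p = 0.00102, adjusted p = 0.408) and -1.26 ± 0.45 with the mouse as a block (adjusted p = 0.406). The adjusted p ran from 0.0657 to 1.00 over the alternatives, so this result failed the correction in all of them. For double+ against CD26+ CAFs the change was -0.66 ± 0.52, and in NFs it was -0.54 for En1+ against double- and -0.43 for double+ against CD26+ libraries (adjusted p = 1.00 in each).

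**Figure D4:**
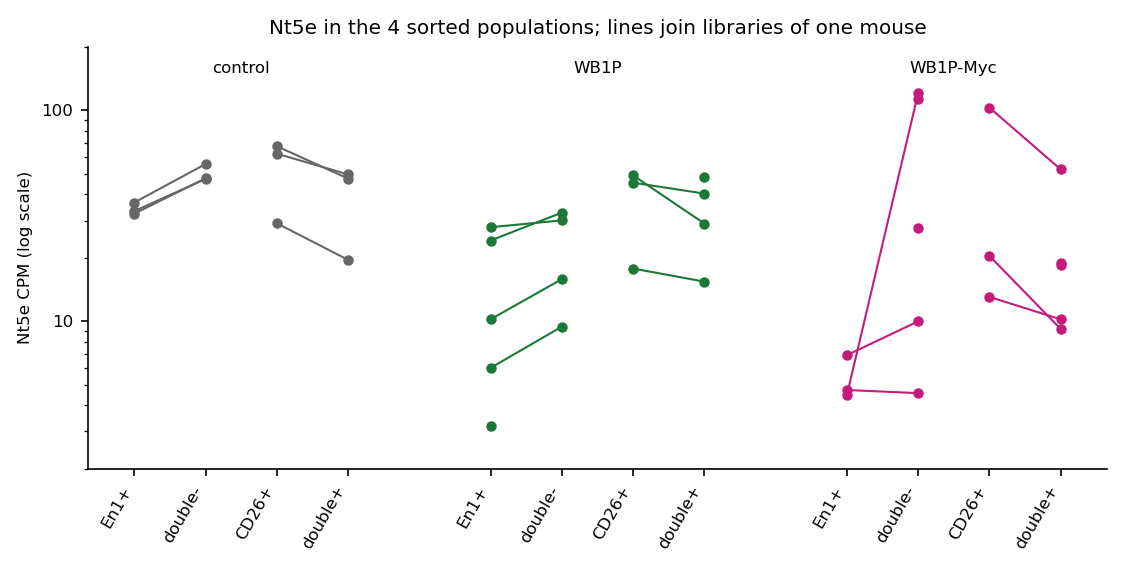
Nt5e in CPM (vertical axis, log scale) in each of the 44 libraries, by donor tissue and sorted population; lines join populations of 1 mouse within a CD26 class. En1+ lies below double- and double+ below CD26+ in all mice with both except 1 WB1P-Myc mouse.

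Other genes of the same pathways were counted from lists. Of 30 further checkpoint ligands and regulators 23 were tested, and 6 rose and 4 fell in CD26- CAFs, 6 and 6 in CD26+ CAFs, with medians of 0.25 and 0.02 on the log2 scale. Among all genes tested, 20.4% rose and 21.0% fell in CD26- CAFs and 20.1% and 21.1% in CD26+ CAFs, with medians of 0.01 and -0.0025, and nothing particular to this list is read from its counts. Tnfsf18, the gene of GITR ligand, averaged 7.16 CPM in CAFs and 0.200 CPM in NFs of the CD26- class, and 13 CPM and 0.297 CPM in those of the CD26+ class. Tnfsf4, the gene of OX40 ligand, was at 1.71 CPM in CD26- CAFs and had 0 counts in each CD26- NF sum. In the CD26+ class Tnfsf4 averaged 1.21 CPM in CAFs and 0.0397 CPM in NFs. Both encode costimulatory ligands. Arg1, an arginine-degrading enzyme that macrophages also make, was at 7.19 CPM in CD26- CAFs against 0.329 CPM in NFs, and the part of the macrophage markers in it was not tested. Icosl, the gene of the ICOS ligand, fell from 30.9 to 6.28 CPM in CD26- (log2 change -2.69 ± 0.44) and from 14.5 to 5.90 CPM in CD26+ fibroblasts (-1.32 ± 0.47). Without control mouse 2 the CD26+ change was -0.81 ± 0.48 and no longer called (adjusted p = 0.209), and the CD26- change was -1.74 ± 0.45 (adjusted p = 0.00621). Between the classes of CAFs, 4 genes of the list were higher and 3 lower in CD26+ fibroblasts, among them Pvr (0.83 ± 0.29), Lgals3 (0.84 ± 0.22) and, lower, Nectin2 (-0.84 ± 0.20) and Cmtm4 (-1.18 ± 0.11), beside 19.1% of all genes higher and 19.9% lower. The Pvr call was lost without WB1P mouse 4 (0.77, adjusted p = 0.0501), WB1P mouse 6 (0.84, adjusted p = 0.0535) or WB1P-Myc mouse 9 (0.78, adjusted p = 0.0641). In NFs 1 gene was called, Nectin3 (0.75 ± 0.21), beside 4.17% of all genes. That call was lost without any 1 of the 3 control mice (0.61 to 0.86, adjusted p = 0.0917 to 0.437) and without any of WB1P mouse 8 and WB1P-Myc mice 10 and 11 (adjusted p = 0.0523 to 0.0579).

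Of 14 receptors that immune cells use to read these ligands 8 were tested, and 3 rose and 1 fell in CD26- CAFs. In CD26+ CAFs 1 rose. Over all genes tested 41.3% were called in the first comparison and 41.2% in the second. The medians of the 8 were 0.80 and 0.40 on the log2 scale, against 0.01 and -0.0025 for all genes. Havcr2, the gene of the galectin-9 receptor TIM-3, had a mean of 1.88 CPM in CD26- CAFs (0.0635 CPM in NFs) and of 1.99 CPM in CD26+ CAFs (0.0860 CPM in NFs), and Cd244a one of 1.59 CPM in CD26- CAFs. Lag3 fell from 41.8 to 16.02 CPM in CD26- fibroblasts (-1.37 ± 0.31), and without control mouse 2 this was -0.69 ± 0.33 and no longer called (adjusted p = 0.120). The 4 pan-immune markers summed to 2.65 to 40.4 CPM in CD26- CAFs and 2.36 to 5.01 CPM in CD26- NFs. In CD26+ fibroblasts they summed to 0.965 to 9.98 CPM in CAFs and 1.945 to 3.695 CPM in NFs. The 7 T and NK cell markers summed to 2.17 to 20.1 CPM in CD26- CAFs and 5.82 to 13.8 CPM in CD26- NFs. In CD26+ fibroblasts they summed to 11.6 to 207 CPM in CAFs and 6.64 to 23.2 CPM in NFs, most of it from Cd3e. Of the 7 markers 2 were tested, and 1 rose and 1 fell in CD26+ CAFs. Cd3e averaged 58.5 CPM in WB1P and 66.2 CPM in WB1P-Myc CD26+ CAFs, where Cd3d and Cd3g averaged 0.09065 CPM or less. Cd4 averaged 0.436 and 0.448 CPM there, against 1.91 CPM in CD26+ NFs. The part of the pan-immune, T and NK cell and macrophage markers in these values was not tested. Sirpa, the gene of the CD47 receptor, was itself well expressed. It was higher in CD26+ fibroblasts, at 218 against 89.2 CPM in CAFs (1.46 ± 0.13, adjusted p = 1.98e-08) and 210 against 114 CPM in NFs (0.94 ± 0.24, adjusted p = 0.0232). The NF call was lost without any 1 of the 3 control mice (0.92 to 0.96, adjusted p = 0.0903 to 0.229).

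The adenosine list held 33 genes, of which 27 were tested. In CD26- CAFs 9 rose and 9 fell, with a median log2 change of 0.03, and in CD26+ CAFs 6 rose and 4 fell, with a median of 0.12. Over all genes tested 41.3% were called in the first comparison and 41.2% in the second, with medians of 0.01 and -0.0025. Enpp1, an ectoenzyme that hydrolyses ATP and cGAMP, rose from 22.7 to 130 CPM in CD26- (2.52 ± 0.48) and from 10.3 to 48.4 CPM in CD26+ fibroblasts (2.33 ± 0.48). Enpp3 fell in both classes (-1.98 ± 0.24 and -1.08 ± 0.25), as did the ATP-gated channel gene P2rx7 (-1.42 ± 0.22 and -1.20 ± 0.23). Entpd2, another ectonucleotidase of the CD39 family, fell from 90.4 to 31.7 CPM in CD26- CAFs (-1.55 ± 0.36), a call lost without control mouse 2 (-0.69, adjusted p = 0.184). Acpp, whose product also removes phosphate from AMP, rose from 2.79 to 11.6 CPM there (1.99 ± 0.65), and was not called without control mouse 2 (1.59, adjusted p = 0.103) or 3 (1.69, adjusted p = 0.0913), while without control mouse 1 it was at 3.23 (adjusted p = 0.00181). Without that mouse Enpp1 in CD26+ fibroblasts was at 3.01.

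Between the classes of CAFs, 8 adenosine genes were higher and 8 lower in CD26+ fibroblasts, beside 39.0% of all genes called. Adora2b, an adenosine receptor gene, was higher in CD26+ fibroblasts of CAFs (56.2 against 24.0 CPM, 1.43 ± 0.27) and of NFs (30.0 against 7.12 CPM, 2.14 ± 0.50). The channel gene Panx1 (1.33 ± 0.22) and the adenosine kinase gene Adk (1.14 ± 0.12) were higher too. Alpl, a phosphatase, was lower in CD26+ CAFs (-3.62 ± 0.75), a size that rests on WB1P mouse 4. That mouse had 271.6 CPM of Alpl in its CD26- sum, where the WB1P median was 5.42 CPM and WB1P-Myc mice had 8.70 to 22.6 CPM, and CD26+ CAFs had 0.667 to 5.39 CPM. Without it the change was -1.80 ± 0.31 (adjusted p = 0.000101). Cd38 was lower in CD26+ fibroblasts of both CAFs (-1.38 ± 0.37) and NFs (-2.42 ± 0.65). In NFs the Adora2b and Cd38 calls were each lost without any 1 of the 3 control mice (adjusted p = 0.0572 to 0.189 for Adora2b and 0.0726 to 0.270 for Cd38), and that of Cd38 also without WB1P mouse 7 (adjusted p = 0.0535).

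Interferon-gamma induces Cd274 and Lgals9 in many cells. All 24 genes of an interferon-gamma list were tested, and 9 rose and 1 fell in CD26- CAFs while 6 rose and 1 fell in CD26+ CAFs, with medians of 0.69 and 0.62 on the log2 scale. Among all genes 20.4% rose and 21.0% fell in the first comparison and 20.1% and 21.1% in the second, with medians of 0.01 and -0.0025. Irf7 (2.84 ± 0.94), Cxcl9 (2.50 ± 0.92) and Cxcl10 (2.14 ± 0.75) rose most in CD26- CAFs, and the receptor gene Ifngr1 fell (-0.56 ± 0.12). Each of these 3 calls was lost when a single mouse was left out. Without control mouse 1 or 3 the adjusted p was 0.0888 or 0.0996 for Irf7, 0.100 or 0.151 for Cxcl9 and 0.116 or 0.136 for Cxcl10. Cxcl9 was lost also without control mouse 2 (adjusted p = 0.0505), WB1P mouse 6 (adjusted p = 0.0511) or WB1P-Myc mouse 11 (adjusted p = 0.0507). The list summed to 1927 to 3620 CPM in CD26- NFs, 2329 to 3379 CPM in WB1P and 2425 to 5132 CPM in WB1P-Myc CD26- CAFs, which overlapped. The part of the macrophage markers in these values was not tested. Cd274 itself did not pass the test in either class, as given above.

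Over the 25 sums, the genes whose log2 CPM ran most like Cd274 were Gbp2 (Pearson r = 0.889), Iigp1 (0.828) and Parp14 (0.823). For Lgals9 they were Ube2l6 (0.922), Eif2ak2 (0.904) and Gm6548 (0.901). For Cd200 they were Ehbp1l1 (0.905), Ankrd1 (0.886) and Nuak2 (0.885), and for Cd276 Mogs (0.905), Srp72 (0.897) and Ckap4 (0.895). Cd47 ran most like Ogn (0.942), Zfp521 (0.938) and Ust (0.936), and Entpd1 like Flvcr2 (0.943), Gramd1b (0.925) and Ism2 (0.920). For Nt5e the closest were 4930466K18Rik (0.733), Mdm1 (0.724) and Ints8 (0.721). The sums of one mouse share that animal and the groups differ in many genes, so these values describe likeness only.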

How the data were processed

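PolyA RNA of sorted fibroblasts was sequenced as stranded libraries. The authors deposited 1 table of read counts per gene, not normalized. Per the submitters' processing notes, HISAT2 2.2.1 and GRCm38 were used. The counter, the annotation and the strand setting are not given in the sources used here. Of the table's 55487 lines, 1 without a gene name held 0 counts and was left out. Each of the 44 columns carries the name of a sample, and groups come from the labels. Control labels carry a pair of numbers, and each pair was counted as 1 mouse because the labels do not say whether animals were pooled. No batch is named.

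Counts were summed per mouse and CD26 class (25 sums, 6 groups) for the CD26, CAF and Myc comparisons and kept as single libraries (12 groups) for the En1 comparisons. In R 4.3.3 with edgeR 4.0.16, genes were filtered with filterByExpr, TMM-normalized and tested with the quasi-likelihood test over all groups, with CAF as the equal-weight mean of both tumor models. A gene was called at an adjusted p under 0.05 (Benjamini-Hochberg over all genes tested). SE is the absolute log2 change over the square root of F. CPM is scaled to total counts. Lengths are merged GENCODE M21 exons, and 54906 of 55226 shared gene IDs have the same coordinates there. A gene with 3 counts or fewer was taken as at the floor, which covers counting error only. Scripts were tested on simulated counts.

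Both classes of a mouse come from the same animal. The deviations of both classes from the group mean were correlated in all 12 mice (r = 0.237 to 0.668, median 0.444), so the fit with the mouse as a block is given beside each result it changed. Other alternatives were DESeq2 1.42.0, its size factors, no filter, each mouse left out, the mice labelled 8x8 left out, only the groups compared, and single tumor models. Leaving out the 3 mice richest in pericyte markers was chosen after the data were seen.

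The members and lists were chosen with earlier results of these data known. The 8 genes are followed in each comparison, some of them only within a range, and Pdcd1lg2 only by its counts and levels. Of the 4 pathway lists, genes were drawn from up to 3 per direction with the largest change among the called genes whose higher group averaged 1 CPM or more. Promoters and their sequences are from RefSeq.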

Additional observations from a re-analysis of the deposited data

Results flagged for a closer look

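The level of each gene was screened for single mice far from their group, in 32 groups of 4 or 5 mice, where chance gives about 1.60. Nt5e in CD26+ CAFs was at 76.4 CPM in WB1P-Myc mouse 9, against 18.8 CPM in the next mouse. Pdcd1lg2 was at 0.562 CPM in CD26- CAFs of WB1P-Myc mouse 11, against 0.148 CPM in the next mouse. In CD26+ CAFs Pdcd1lg2 was at 0.0728 CPM in the same mouse and at 0.0389 CPM in WB1P mouse 5, with all others of their groups at 0; each of these values is 1 count, under the floor of 3 counts.

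The change from NF to CAF differed between CD26 classes for 3 genes in the fit with the mouse as a block. The difference, CD26+ minus CD26-, was -2.17 on the log2 scale for Cd200, -1.28 for Cd274 and 1.79 for Entpd1. With all mice and no block edgeR called none of these; Cd200 and Entpd1 passed in some alternatives without the block.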

How the results depend on the processing

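The mouse as a block, which pairs the classes of one animal, raised the genes called from 2 to 5 for CD26+ against CD26- CAFs, from 1 to 3 in NFs and from 0 to 3 for the difference between classes. It changed no other call. For CD26+ against CD26- CAFs 1 gene was called with WB1P mice alone, with WB1P-Myc mice alone and without the 3 mice richest in pericyte markers. In NFs 0 were called with only the groups compared. For the difference between classes 1 was called without the low-count filter and 2 by DESeq2. With each mouse left out in turn, 0 to 1 genes were called in NFs and 0 to 1 for the difference, 4 to 5 for CD26- CAFs against NFs, 2 to 4 for CD26+ CAFs against NFs and 2 to 3 between the classes of CAFs. The cause of these shifts was not tested.

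Signs turned only for changes that were not called. With each mouse left out in turn, Cd274 in CD26- CAFs ran from -0.0652 to 1.0379, Cd200 between the classes of CAFs from -0.0815 to 0.1153, Nt5e there from -0.0635 to 0.8809, and in NFs Cd276 from -0.0865 to 0.0706 and Nt5e from -0.0052 to 0.4245. Cd200 between the classes of CAFs was at -0.24 with WB1P mice alone, -0.0555 with the block and -0.17 without the 3 mice richest in pericyte markers, and Nt5e at -0.36 with WB1P-Myc mice alone against 1.2505 with WB1P mice alone. Cd276 in NFs was at 0.0007 with only the groups compared and 0.0624 with the block.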
